A study of Mus musculus with 12 samples.

Results

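Long non-coding RNAs are transcripts that act as RNA instead of being translated, and 9 of them were followed here in liver: Neat1, Malat1, Gas5, Snhg1, Snhg3, Snhg8, H19, Meg3 and 1810019D21Rik. They were taken by gene symbol from a table of 38087 genes, of which 27410 had a count in some library, and 7 of the 9 were measured. Snhg1 and Snhg8 themselves were not analysed here, and only small RNA genes inside them and genes beside them are described. One of the 9, 1810019D21Rik, was chosen by its counts in these same libraries, which were higher with ghrelin, so its difference between the groups is a description and carries no test.

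Total RNA was sequenced in 12 liver libraries of germ-free male C57BL/6j mice, which live without any microbes and were 13 to 16 weeks old. Rat ghrelin was given to the ghrelin group (n = 6). Ghrelin, a stomach hormone that stimulates feeding and growth hormone release, was injected under the skin at 10 µg per mouse every day for 5 days. The PBS group (n = 6) was given phosphate-buffered saline on the same schedule, and both injection and tissue are labelled zeitgeber time 2, early in the light phase. All mice of both groups were germ-free and male, so neither the microbiota nor sex was varied, and no label says that the libraries come from separate animals. The p-values therefore measure the spread between these libraries, part of which may be technical.

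The members fall into 4 kinds by what is known of them. Malat1 and Neat1 are transcribed from neighbouring genes and stay in the nucleus, Malat1 in the nuclear speckles where splicing factors gather and Neat1 as the scaffold around which paraspeckles assemble. Gas5 and the Snhg genes are hosts of small nucleolar RNAs (snoRNAs), short guides for the chemical modification of other RNAs that are cut from the introns of the host, while the spliced host RNA is mostly degraded in the cytoplasm by nonsense-mediated decay. H19, expressed from the maternal chromosome and abundant in fetal liver before it is silenced after birth, and Meg3, a maternally expressed RNA of the Dlk1-Dio3 cluster, are imprinted. The RIKEN clone 1810019D21Rik is a spliced transcript without an assigned function that lies head to head across the splicing factor gene Esrp2.

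Total counts were 18746597 to 22302533 in the PBS group and 15775059 to 21457627 in the ghrelin group. Alb, the albumin gene of hepatocytes, stood at 65445 ± 9520 CPM (counts relative to the scaled library total) in the PBS group and 57655 ± 6110 in the ghrelin group (SD, n = 6 each), while the markers of B cells, T cells and pancreatic acinar cells all lay below the filter on low counts. In bulk tissue, fewer cells of a type and less RNA per cell cannot be told apart. Of 14170 genes that passed the filter, 15 (0.106%) were called at an adjusted p under 0.05 by edgeR's quasi-likelihood test with Benjamini-Hochberg adjustment, 6 higher (0.0423%) and 9 lower (0.0635%) with ghrelin. Over all tested genes the median log2 fold change, ghrelin over PBS, was 0.00. Of the 7 measured members 6 passed the filter, and H19 did not. Among the 5 tested members other than 1810019D21Rik, edgeR called 0, DESeq2 called 0 of the 4 for which it gave an adjusted p, and 0 had an unadjusted p under 0.05. Over all tested genes, 1896 of 14170 (13.4%) had an unadjusted p under 0.05, and DESeq2 called 204 of 11146 (1.83%), 111 of them lower (0.996%). Of 7 hepatocyte markers, Alb among them, 3 had positive and 4 negative log2 fold changes. For these 7, edgeR called 0 and DESeq2 called 1, Cps1, lower with ghrelin (adjusted p = 0.0302). DESeq2 left some low genes of the lists that follow without an adjusted p, and these stay out of its calls.

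Only some of these RNAs were abundant. Among the 27410 genes with a count, Malat1 ranked 29 by mean CPM, Neat1 310, Snhg3 831, Gas5 2130 and 1810019D21Rik 6594. Meg3 ranked 13823 and H19 18352, so the first lay near the middle and the other in the lower part of the table. Per kilobase of merged exons, the order was Malat1 at 590.1 ± 26.6 CPM per kb (SD over the 12 libraries), Snhg3 at 152 ± 22.5, Neat1 at 18.6 ± 5.82, Gas5 at 16.3 ± 1.26, 1810019D21Rik at 8.84 ± 3.08, Meg3 at 0.0327 ± 0.0119 and H19 at 0.0253 ± 0.0222. Neat1 and Gas5 did not differ beyond their spread in that order, and neither did Meg3 and H19. With the longest transcript as the length, Gas5 came to 23.9 CPM per kb and stood above Neat1. The counts of 2 snoRNA genes inside Snhg3 came to 92.0% to 96.9% of its own count in each library. Its rank and level may therefore not be those of the host RNA.

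**Figure D1:**
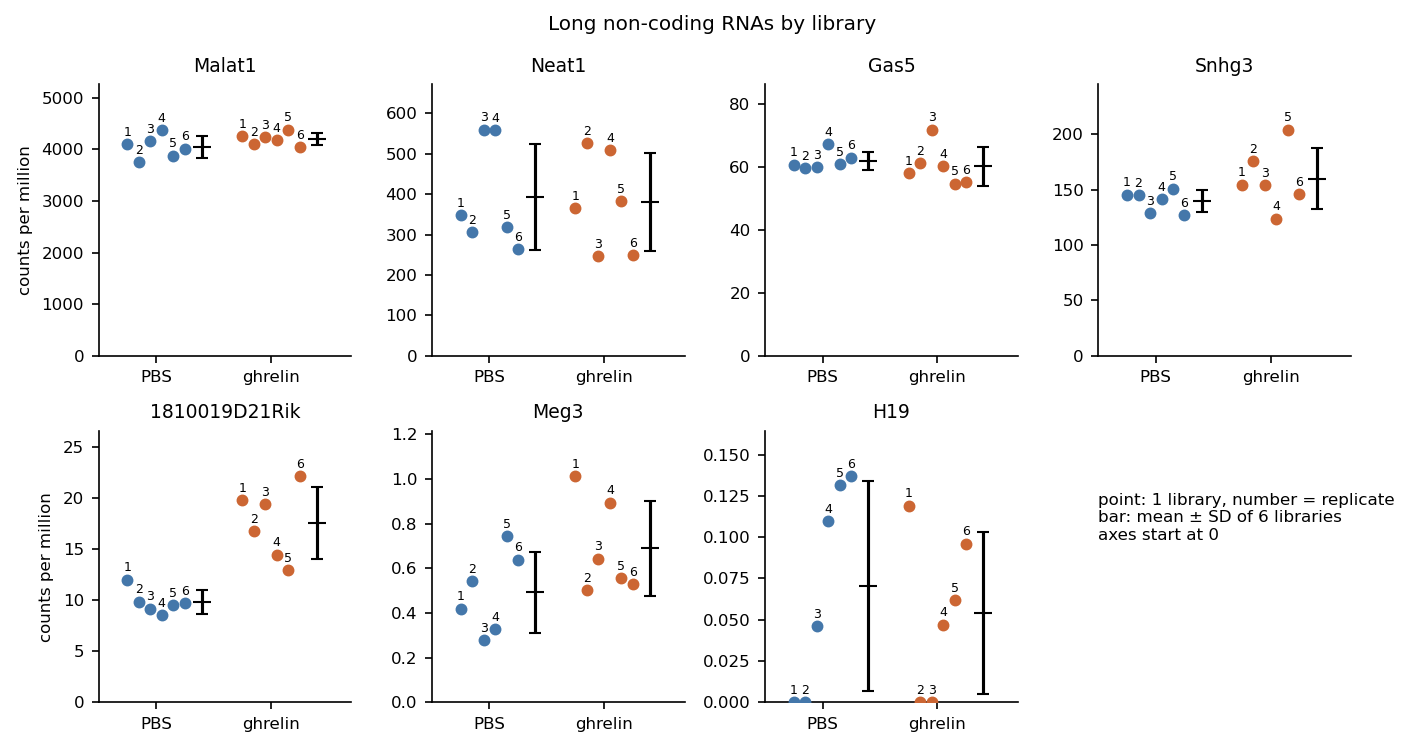
Each panel plots the CPM of 1 long non-coding RNA (vertical axis, starting at 0) in the 6 PBS and 6 ghrelin libraries, numbered by replicate, with the mean ± SD of each group as a bar. Malat1 is nearly level, Neat1 splits into high and low libraries in both groups, and the groups overlap in every panel except that of 1810019D21Rik.

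Malat1 (chr19:5795690-5802672, minus strand, GRCm38, annotated as a single merged exon of 6983 bases) gave 0.384% to 0.432% of all counts in a library. Its level in the PBS libraries 1 to 6 was 4097, 3756, 4159, 4369.8, 3878 and 4009.7 CPM, and in the ghrelin libraries 1 to 6 it was 4255, 4095, 4238, 4182, 4378 and 4034 CPM. No library stood far from the rest, the highest being only 1.17 times the lowest, and the groups overlapped. The means were 4045 ± 216 CPM with PBS and 4197 ± 122 CPM with ghrelin (SD, n = 6 each), which is 0.05 on the log2 scale (SE 0.05, adjusted p = 0.713 by edgeR). This single RNA made up 40.3% of all counts that fell on annotated long non-coding genes.

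Neat1 (chr19:5824708-5845478, minus strand, a merged exon of 20771 bases) was far more variable than its neighbour. The PBS libraries 1 to 6 had 348, 307, 559.5, 559.0, 319 and 264 CPM. The ghrelin libraries 1 to 6 had 365, 526, 247, 509, 383 and 249 CPM. PBS 3, PBS 4, ghrelin 2 and ghrelin 4 were high and the other 8 libraries lower, with the same kind of split in both groups, so the ranges overlapped almost entirely. The means were 393 ± 132 CPM with PBS and 380.0 ± 121 CPM with ghrelin, which is -0.05 on the log2 scale (SE 0.22, adjusted p = 0.955). The biological coefficient of variation of Neat1 was 0.276, higher than in 93.4% of the tested genes, against 0.0957 for Malat1, higher than in 23.1%.

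The ratio of Neat1 to Malat1 within a library does not depend on scaling. On the log2 scale it was -3.43 ± 0.41 with PBS (lowest -3.93, median -3.58, highest -2.89) and -3.53 ± 0.48 with ghrelin (lowest -4.10, median -3.53, highest -2.96), a difference of -0.10. The 4 libraries high in Neat1 had 12.2 to 13.5 Neat1 counts for every 100 Malat1 counts, and the other 8 had 5.83 to 8.75. Levels of Neat1 and Malat1 over the 12 libraries gave Pearson's r of 0.42 (permutation p = 0.175, adjusted 0.349) and Spearman's rho of 0.43 (permutation p = 0.160, adjusted 0.320), with r = 0.77 within the PBS group, 0.07 within the ghrelin group and 0.28 without PBS 3 and PBS 4. The relation did not pass the test, and the levels of a library share its scaling factor. It was 1 of 2 correlations that could be computed out of 8 planned, since the other 6 involve Snhg1, Snhg8 or the sparse counts of H19.

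After each gene was centred on its group mean, the genes most like Neat1 over the 12 libraries, out of 12828 with a mean of at least 1 CPM, were Cecr2 (r = 0.95), Ccdc6 (0.94), Mical2 (0.93), Ulk1 (0.92) and Slc25a32 (0.92). Cecr2 encodes a bromodomain protein of chromatin remodelling complexes, Mical2 an enzyme that oxidises actin, Ulk1 the kinase that starts autophagy and Slc25a32 a mitochondrial folate carrier. Cecr2 had 37.1, 37.2, 39.4 and 39.5 CPM in the 4 libraries high in Neat1 and 25.6 to 36.0 CPM in the other 8. Its own difference between the groups was not called (log2 fold change 0.21, SE 0.12, adjusted p = 0.461 by edgeR). These genes were selected for their likeness, so the coefficients are descriptions. The genes most like Malat1 were Fam175a (r = 0.87), Rp9 (0.87), Rbm47 (0.84), Diap2 (0.84) and Eif1a (0.84), all below the likeness of the 5 genes listed for Neat1. Rbm47 encodes an RNA-binding cofactor of RNA editing and Eif1a a translation initiation factor.

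**Figure D2:**
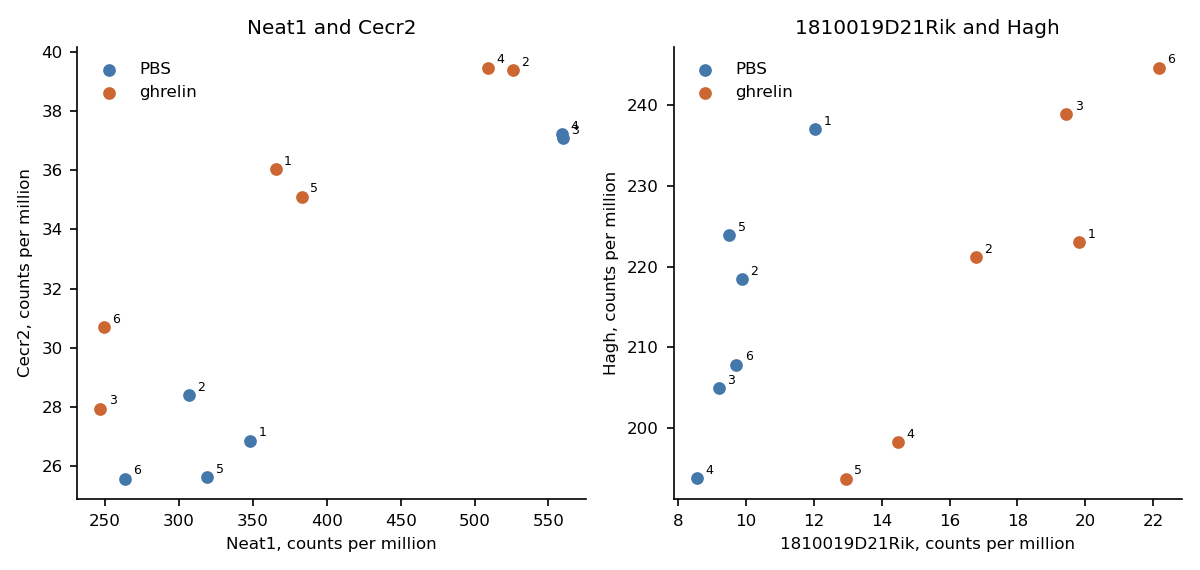
Each point is a library, coloured by group and numbered by replicate, with the CPM of a long non-coding RNA on the horizontal axis and of the gene most like it on the vertical axis (neither axis starts at 0). The 4 libraries above 500 CPM of Neat1 have 37.1 to 39.5 CPM of Cecr2, and 1810019D21Rik separates the groups along the horizontal axis while Hagh spans 194 to 237 CPM with PBS and 194 to 245 CPM with ghrelin.

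Genes that encode the proteins of the bodies in which Malat1 and Neat1 reside were listed alongside. Of 24 nuclear speckle proteins 23 were lower on average with ghrelin and 1 higher, and the median log2 fold change was -0.14. edgeR called 0 of them, 11 had an unadjusted p under 0.05, and DESeq2 called 5, all lower with ghrelin. The shares over all tested genes were 13.4% with such an unadjusted p and 0.996% called lower by DESeq2. Tra2b, a splicing activator, had 37.7 ± 3.72 CPM with PBS and 30.2 ± 2.47 with ghrelin (log2 fold change -0.32, SE 0.07, adjusted p = 0.124 by edgeR and 0.0146 by DESeq2). Clk4, a kinase of splicing factors, had -0.27 (SE 0.07, adjusted p = 0.129 by edgeR and 0.0188 by DESeq2), and Srsf11, a serine- and arginine-rich protein, -0.30 (SE 0.08, adjusted p = 0.147 and 0.0313). The other 2 that DESeq2 called were Sf3b1 and Srsf2, named here after their values were seen. The summed level of the 24 genes was 1744 to 1935 CPM with PBS and 1552 to 1671 CPM with ghrelin, ranges without overlap. High genes such as Son (299 CPM with PBS, 282 with ghrelin) weigh most in this sum. The list was chosen with earlier results of these data known. Among single tested genes, 65 of 14170 (0.459%) were lower with ghrelin without overlap, and the share among comparable sums was not computed. Malat1 itself overlapped between the groups.

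Of 23 paraspeckle proteins, 18 were lower on average and 5 higher, at a median log2 fold change of -0.10. edgeR and DESeq2 each called 0, and 4 had an unadjusted p under 0.05. Pspc1, a core paraspeckle protein, had 13.2 ± 1.39 CPM with PBS and 11.5 ± 0.891 with ghrelin, which is -0.19 on the log2 scale (SE 0.08, adjusted p = 0.334). Taf15 had -0.21 (SE 0.09, adjusted p = 0.314) and Rbm7 -0.19 (SE 0.08, adjusted p = 0.305). The medians of both lists were the same to 2 decimals under each scaling tried.

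The snoRNA hosts come next, and Gas5 (chr1:161034422-161038539, plus strand, 25 annotated transcripts with 3760 merged exon bases) was the steadier of the pair that was measured. The PBS libraries 1 to 6 had 60.8, 59.8, 60.1, 67.4, 61.0 and 63.0 CPM. The ghrelin libraries 1 to 6 had 58.1, 61.3, 71.9, 60.3, 54.8 and 55.3 CPM. Ghrelin 3 was the highest and ghrelin 5 the lowest of all, and the PBS values lay inside the ghrelin range. The means were 62.0 ± 2.88 CPM with PBS and 60.3 ± 6.26 CPM with ghrelin (log2 fold change -0.04, SE 0.07, adjusted p = 0.841). Gas5 is a 5'TOP gene, one whose transcript starts with a run of pyrimidines that ties its decay and translation to growth signals. The 2 sequences that follow are the first 50 bases from RefSeq starts on GRCm38.p6, of 1 start of Gas5 at chr1:161035166-161035215 (plus strand) and of Snhg3 at chr4:132353637-132353686 (minus strand), with the opening pyrimidine run in capitals, to show where it is present. RefSeq gives Gas5 another start as well, whose first 50 bases (chr1:161034601-161034650, plus strand) do not open with such a run.
Gas5 start: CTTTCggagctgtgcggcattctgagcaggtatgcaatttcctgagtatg
Snhg3 start: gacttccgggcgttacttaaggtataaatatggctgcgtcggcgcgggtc

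A list of 18 other 5'TOP translation genes that are not ribosomal protein genes had 5 positive and 13 negative log2 fold changes with a median of -0.02, and edgeR and DESeq2 each called 0 (0 with an unadjusted p under 0.05). Npm1, a nucleolar chaperone, had 99.9 ± 5.54 CPM with PBS and 91.0 ± 8.82 with ghrelin (log2 fold change -0.13, SE 0.07, adjusted p = 0.410). The 16 factors of nonsense-mediated decay split evenly, 8 positive and 8 negative, with a median of 0.01, 0 calls by either tool and 1 unadjusted p under 0.05. That 1 was Smg1, the kinase that triggers the pathway, with 142 ± 31.7 CPM in the PBS group and 113 ± 13.1 in the ghrelin group (log2 fold change -0.32, SE 0.13, adjusted p = 0.297).

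The span of Gas5 holds 9 annotated snoRNA genes with counts, all of the box C/D class. SNORD44 and Snord47 are printed from GRCm38 to show the parts that define the class, box C (TGATGA) near one end and box D (CTGA) near the other, in capitals. The first lies at chr1:161036682-161036741 and the other at chr1:161038082-161038158, both on the plus strand as Gas5 is.
SNORD44: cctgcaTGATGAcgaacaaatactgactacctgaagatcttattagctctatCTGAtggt
Snord47: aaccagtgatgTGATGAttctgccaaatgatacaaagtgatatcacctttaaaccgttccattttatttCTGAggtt

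SNORD44 had 9.85 ± 1.01 CPM with PBS and 9.56 ± 1.32 with ghrelin (log2 fold change -0.04, SE 0.10), and Snord47 had 7.26 ± 1.07 and 7.01 ± 0.943 (-0.05, SE 0.12). Over all 9, 4 log2 fold changes were positive and 5 negative, from -0.21 for SNORD79 to 0.33 for SNORD74, and edgeR and DESeq2 each called 0. An unadjusted p under 0.05 was reached by 2, SNORD74 (3.06 ± 0.352 against 3.85 ± 0.782 CPM, adjusted p = 0.330) and SNORD75 (9.89 ± 0.726 against 11.7 ± 1.59 CPM, adjusted p = 0.297). These 2 lie nearest the start of the gene. The correlation of the 9 with Gas5 over the 12 libraries, not centred on the group means, ranged from r = 0.20 to 0.77, with a median of 0.61. Together the 9 genes had 18447 counts over all libraries, more than the 14509 of Gas5, although the annotation places every one of them within its merged exons. Which annotation the counting used, and whether a read could count for several genes, is not stated. How many counts Gas5 shares with its snoRNA genes is therefore not known. These snoRNA genes are only 60 to 84 bases long. Whether their counts come from snoRNAs already cut out or from host RNA that still holds them was not tested. The values above and their correlations with Gas5 may therefore not be those of mature snoRNAs.

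Beside Gas5, Zbtb37, which starts on the opposite strand and overlaps its span by 428 bases without sharing exons, had a log2 fold change of 0.05 (SE 0.12). The genes most like Gas5 were Dnaja2 (r = 0.90), Grpel1 (0.86), Eif3j2 (0.86), BC016423 (0.86) and Ppp4r2 (0.85). Dnaja2 and Grpel1 encode partners of Hsp70 chaperones and Eif3j2 a subunit of a translation initiation factor, and edgeR called none of the 5. Their log2 fold changes ran from -0.24 for Eif3j2 to 0.00 for Grpel1, with -0.22 for BC016423 (SE 0.05, adjusted p = 0.124 by edgeR).

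Snhg3 (chr4:132348014-132353686, minus strand) carried a higher mean with ghrelin that did not pass the test. The PBS libraries 1 to 6 had 145, 145, 129, 142, 151 and 127 CPM. The ghrelin libraries 1 to 6 had 155, 176, 154, 124, 204 and 146 CPM. Ghrelin 5 and ghrelin 2 were the highest of all 12, ghrelin 4 was the lowest, and the groups overlapped. The means were 139.7 ± 9.75 CPM with PBS and 159.7 ± 27.4 CPM with ghrelin, or 0.19 as log2 fold change (SE 0.10, adjusted p = 0.410).

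The count of Snhg3 was close to the sum of the counts of its snoRNAs. Its 2 snoRNAs, Snora73a and Snora73b (U17), are of the box H/ACA class and take part in the early cleavage of ribosomal RNA. They are printed from GRCm38 (Snora73a at chr4:132352775-132352979 and Snora73b at chr4:132352322-132352526, both minus strand) because they are near copies, with the positions that differ in capitals.
Snora73a: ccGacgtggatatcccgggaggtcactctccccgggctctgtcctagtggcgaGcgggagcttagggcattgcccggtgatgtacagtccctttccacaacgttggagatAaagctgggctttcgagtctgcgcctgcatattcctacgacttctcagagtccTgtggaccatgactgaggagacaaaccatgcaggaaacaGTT
Snora73b: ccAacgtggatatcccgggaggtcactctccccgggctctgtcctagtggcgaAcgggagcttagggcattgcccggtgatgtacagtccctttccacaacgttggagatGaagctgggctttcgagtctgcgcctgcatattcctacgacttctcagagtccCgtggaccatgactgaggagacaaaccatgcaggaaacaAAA

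The pair is 205 bases long in each case and identical at 96.6% of positions, with 7 differences, so the split of reads between them is uncertain where a read covers none of these. In every library the counts of Snora73a and Snora73b together came to 92.0% to 96.9% of the Snhg3 count (median 95.3%), which left 81 to 225 counts per library, 1653 of 35039 over all 12. The protein-coding gene Rcc1, a nuclear exchange factor for the GTPase Ran, overlaps Snhg3 on the same strand and shares 135 exon bases with it. Its count was 66 to 111 higher than that of Snhg3 in every library, or 1.02 to 1.04 times as high. The deposited counts of the 4 genes can therefore not be taken as independent, but whether reads were shared between them is not stated. In the annotation used for lengths, Snora73a shares 159 of its 205 bases with exons of Snhg3, and Snora73b shares 0. The level given for Snhg3, per kilobase too, follows the counts of its snoRNA genes.

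**Figure D3:**
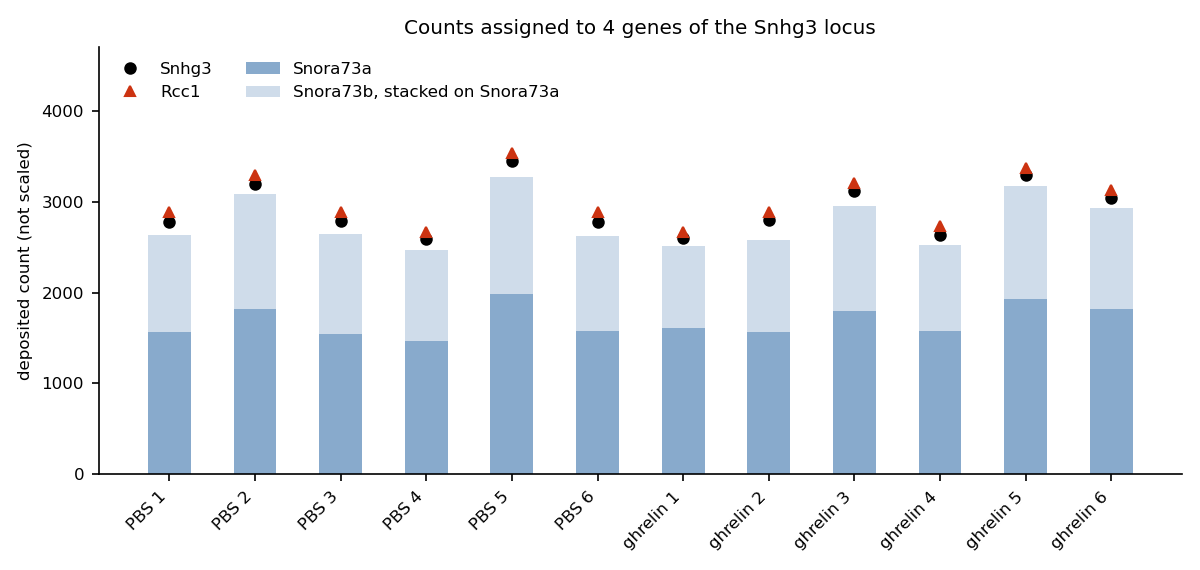
The deposited, unscaled counts of Snora73a and Snora73b are stacked as bars for each of the 12 libraries (axis from 0), with the counts of Snhg3 as circles and of Rcc1 as triangles. In each library the stacked bars reach 92.0% to 96.9% of the Snhg3 count, and Rcc1 sits 66 to 111 counts above it.

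Snora73a had 79.2 ± 6.28 CPM with PBS and 94.0 ± 15.1 with ghrelin (log2 fold change 0.25 with an SE of 0.09, adjusted p = 0.290), and Snora73b had 53.8 ± 3.70 and 58.2 ± 11.004 (0.11, SE 0.10, adjusted p = 0.676). Rcc1 followed with 0.19 (SE 0.10). Gm17300, a transcript on the opposite strand that shares 705 exon bases with Snhg3, was low and uneven at 1.26 ± 0.838 CPM with PBS and 2.28 ± 1.28 with ghrelin (0.85, SE 0.42, adjusted p = 0.403). Levels of Gas5 and Snhg3 gave Pearson's r of -0.28 (permutation p = 0.377, adjusted 0.377) and Spearman's rho of -0.23 (permutation p = 0.472, adjusted 0.472), with r = -0.07 in the PBS group, -0.23 in the ghrelin group and -0.55 without PBS 4 and ghrelin 3.

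At the locus of Snhg1 on chromosome 19, 8 snoRNA genes had counts and 7 were tested. Of these 6 had negative log2 fold changes and Snord22 a positive one, edgeR called 0 of 7, DESeq2 called 0 of the 1 for which it gave an adjusted p, and 1 had an unadjusted p under 0.05. Snord22 had 4.79 ± 0.586 CPM with PBS and 6.17 ± 1.14 with ghrelin (log2 fold change 0.36, SE 0.13, adjusted p = 0.265). The other 6 tested had 0.684 to 1.15 CPM with PBS. Slc3a2, which encodes a subunit of amino acid transporters and starts 106 bases from Snhg1 on the opposite strand, had 30.3 ± 2.60 CPM with PBS and 29.1 ± 1.62 with ghrelin (-0.06, SE 0.07). Within Snhg8 on chromosome 3, Snora24 had 2.35 ± 0.455 and 2.71 ± 0.496 CPM (0.21, SE 0.16, adjusted p = 0.603). For the snoRNA genes of Snhg1, Snhg3 and Snhg8, as for those of Gas5, the share of counts from mature snoRNAs was not tested.

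Among 13 other tested non-coding snoRNA hosts, 8 log2 fold changes were positive and 5 negative with a median of 0.06. edgeR and DESeq2 each called 0, and 1 had an unadjusted p under 0.05, Snhg9, with 3.98 ± 1.05 CPM in the PBS group and 5.64 ± 1.23 in the ghrelin group (0.50, SE 0.19, adjusted p = 0.282). Snhg12 had 7.36 and 7.46 CPM and Zfas1 6.82 and 6.31 CPM in the PBS and ghrelin groups. The proteins that bind and mature snoRNAs had 2 positive and 11 negative log2 fold changes of 13 with a median of -0.13, 0 calls by either tool and 3 unadjusted p under 0.05. Nop58, a core protein of box C/D particles, had 21.1 ± 3.46 CPM with PBS and 17.2 ± 3.44 with ghrelin (-0.29, SE 0.13, adjusted p = 0.355), and Naf1, an assembly factor of box H/ACA particles, 3.31 ± 0.271 and 2.72 ± 0.125 (-0.28, SE 0.11, adjusted p = 0.279).

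**Figure D4:**
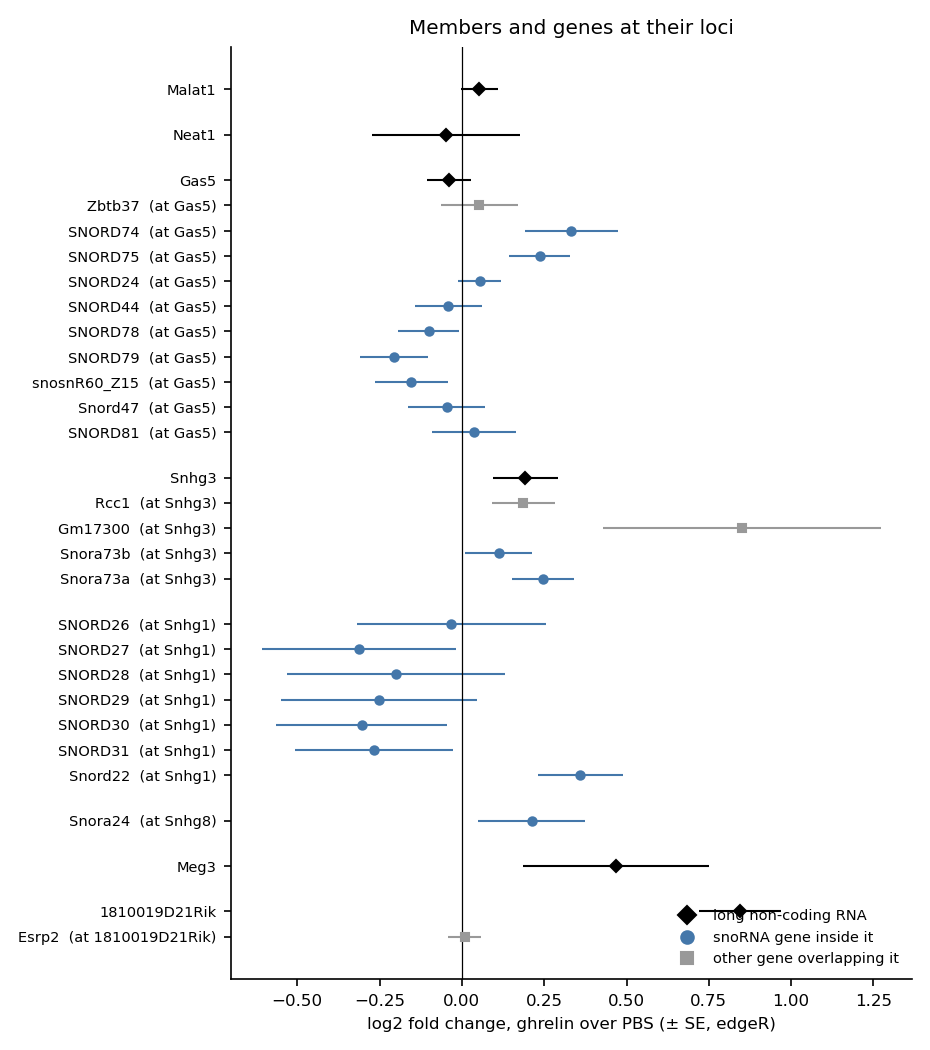
Log2 fold changes of ghrelin over PBS (horizontal axis, points, with SE as bars, from edgeR) are drawn for the tested long non-coding RNAs (diamonds), the snoRNA genes inside them (circles) and other genes whose span overlaps theirs (squares). Values within a locus differ in sign at Gas5 and Snhg1, those of Snhg3, Rcc1 and the Snora73 genes lie between 0.11 and 0.25, and Esrp2 lies at 0.01 beside the 0.84 of 1810019D21Rik.

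The imprinted RNAs were at or near the limit of detection. H19 (chr7:142575529-142578143, minus strand) had 0, 0, 1, 2, 3 and 3 counts in PBS libraries 1 to 6 and 2, 0, 0, 1, 1 and 2 counts in ghrelin libraries 1 to 6. Libraries without a count occurred in both groups, 2 in each, and the groups overlapped. The sums were 9 counts with PBS (0.0716 CPM, exact Poisson interval 0.0327 to 0.136) and 6 with ghrelin (0.0539 CPM, 0.0198 to 0.117), intervals that cover counting error only, so a difference was not detectable at this depth. The microRNA Mir675, which is processed from H19, had 0 counts. Total RNA libraries read over 125 cycles per end do not measure mature microRNAs, so this count says nothing of their level. Igf2, the growth factor gene that shares the enhancers of H19, had 39 counts over the 12 libraries.

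Meg3 (chr12:109541001-109571726, plus strand, 18089 merged exon bases) had 6 to 19 counts per library, 63 in the PBS group and 77 in the ghrelin group. The PBS libraries 1 to 6 had 0.419, 0.544, 0.277, 0.329, 0.745 and 0.639 CPM. The ghrelin libraries 1 to 6 had 1.01, 0.502, 0.643, 0.894, 0.557 and 0.528 CPM. Ghrelin 1 and ghrelin 4 were the highest and PBS 3 and PBS 4 the lowest, with overlap between the groups. The means were 0.492 ± 0.182 CPM with PBS and 0.689 ± 0.213 CPM with ghrelin, or 0.47 as log2 fold change (SE 0.28, adjusted p = 0.493).

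Rian, a maternally expressed RNA downstream of Meg3 in the same cluster (chr12:109603940-109661716, plus strand), was as low. The PBS libraries 1 to 6 had 0.524, 0.498, 0.231, 0.329, 0.789 and 0.776 CPM and the ghrelin libraries 1 to 6 had 1.25, 0.628, 0.841, 0.941, 1.73 and 0.864 CPM. Ghrelin 5 was the highest and PBS 3 the lowest, and only ghrelin 2 reached down into the PBS range. Its log2 fold change was 0.96 (SE 0.31, adjusted p = 0.223 by edgeR), the largest among 17 tested imprinted genes. Dlk1, a paternally expressed gene at the other end of the cluster, had 2 counts in all, and 9 of 11 microRNA genes at or beside Meg3 had 0. The limit given for Mir675 holds for these microRNA genes too.

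Of the 17 tested imprinted genes, 8 had positive and 9 negative log2 fold changes with a median of -0.07. edgeR and DESeq2 each called 0, 3 had an unadjusted p under 0.05, and 10 further genes lay below the filter. Besides Rian, the smallest p belonged to Dcn, the matrix proteoglycan decorin of stellate cells (141 ± 14.8 against 122 ± 11.5 CPM, -0.21, SE 0.08, adjusted p = 0.275), and to Impact, a regulator of translation (14.4 ± 2.47 against 12.1 ± 0.857 CPM, -0.24, SE 0.11, adjusted p = 0.344). The summed markers of stellate cells were 411 to 462 CPM with PBS and 402 to 463 with ghrelin, with 6 of 8 log2 fold changes positive and 0 called by either tool (2 unadjusted p under 0.05).

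Other genes that liver silences after birth with H19 were listed with their regulators. Afp, the fetal serum protein, had 2.57 CPM with PBS and 2.54 CPM with ghrelin (log2 fold change -0.02, SE 0.16). Its repressor Zhx2, which also holds H19 down in adult liver, had 16.6 ± 1.63 and 16.2 ± 0.936 CPM (-0.03, SE 0.07). Ctcf, the insulator protein that binds the imprinted control region of H19 and Igf2, had 36.7 ± 1.10 and 32.0 ± 1.21 CPM (-0.20, SE 0.05, adjusted p = 0.140 by edgeR). Of the 6 tested genes of this list, 2 were positive and 4 negative, edgeR called 0 with 1 unadjusted p under 0.05, and DESeq2 called 1, Ctcf (adjusted p = 0.0248).

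The transcript 1810019D21Rik (ENSMUSG00000086390, chr8:106135400-106138525, plus strand, 5 merged exons of 1551 bases) was the member chosen for its difference. The PBS libraries 1 to 6 had 12.0, 9.88, 9.19, 8.55, 9.51 and 9.72 CPM, from 156 to 230 counts each. The ghrelin libraries 1 to 6 had 19.8, 16.8, 19.4, 14.5, 12.9 and 22.2 CPM, from 209 to 462 counts each. Every ghrelin library stood above every PBS library, the nearest being ghrelin 5 and PBS 1, and ghrelin 6 was the highest. The means were 9.82 ± 1.19 and 17.6 ± 3.50 CPM, a log2 fold change of 0.84 (SE 0.12). Groups without overlap occurred in 117 of the 14170 tested genes (0.826%), 52 of them higher (0.367%) and 65 lower (0.459%) with ghrelin. Since this contrast chose the transcript, nothing is read from its place among them.

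Its biological coefficient of variation, 0.148, was higher than in 64.5% of the tested genes, so its spread between libraries was unremarkable next to that of Neat1. The log2 fold change was 0.77 to 0.92 over 19 other fits. Among the annotated long non-coding genes it ranked 42 by CPM and 43 by CPM per kb.

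The gene lies across the start of Esrp2, an epithelial splicing regulator on the opposite strand, over 1575 bases. The genes share 119 exon bases, which make up 7.67% of the exons of 1810019D21Rik and 2.74% of those of Esrp2. Esrp2 had 72.5 ± 3.12 CPM with PBS (69.2 to 78.4) and 72.9 ± 3.30 with ghrelin (68.0 to 78.2), ranges that overlapped almost entirely, at a log2 fold change of 0.01 (SE 0.05) and an adjusted p of 0.965. The libraries were made with a kit that keeps the strand, per the labels' protocols, but which strand setting the counting used is not stated there, and reads from the shared bases cannot be assigned with certainty. The other genes within 20 kb were Nfatc3, a transcription factor gene (log2 fold change -0.10, SE 0.06), and Pla2g15, a lysosomal phospholipase gene (0.13, SE 0.13). None of the 3 was called.

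The promoter is printed as RefSeq gives it on GRCm38.p6, 300 bases at chr8:106135150-106135449 on the plus strand with the transcribed bases in capitals, because the levels of the transcript that starts here did not overlap between the groups.
1810019D21Rik promoter: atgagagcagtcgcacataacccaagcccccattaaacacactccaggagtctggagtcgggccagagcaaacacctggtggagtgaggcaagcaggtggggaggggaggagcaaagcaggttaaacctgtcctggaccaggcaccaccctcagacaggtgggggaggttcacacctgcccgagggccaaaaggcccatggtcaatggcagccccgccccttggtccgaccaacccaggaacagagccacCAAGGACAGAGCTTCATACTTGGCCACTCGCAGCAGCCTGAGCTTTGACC

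A search of both strands for TTCNNNGAA, the spaced palindrome of STAT factors, found no match in this window, and 8.30% of 32851 RefSeq promoters of the same length hold one. The E-box CACGTG was absent too (7.15% of all promoters hold it), as was TATAAA (13.6%). Of the 9 promoters found for 7 of the members, 0 held the STAT motif, 0 the E-box and 4 the TATAAA letters, those of Snhg1, Snhg3, Snhg8 and one of Meg3. In Snhg3 the letters lie 22 bases past the RefSeq start, among the transcribed bases. In Snhg1, Snhg8 and Meg3 they lie 25 to 30 bases before it. Absence says only that these letters are not in the window.

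The genes most like 1810019D21Rik after centring on the group means were Hagh (r = 0.93), Rpl34 (0.88), Gm16124 (0.88), Rps27 (0.88) and Tmem138 (0.87). Hagh encodes a hydrolase of the glyoxalase system, Rpl34 and Rps27 are ribosomal proteins, and edgeR called none of the 5 between the groups. Hagh had 237, 218, 205, 194, 224 and 208 CPM in PBS libraries 1 to 6 and 223, 221, 239, 198, 194 and 245 CPM in ghrelin libraries 1 to 6. The Hagh values of the groups overlapped. Its log2 fold change was 0.04 (SE 0.07, adjusted p = 0.864).

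Of 6 neutrophil markers, 2 were tested, S100a8 (log2 fold change -1.44, SE 0.36, adjusted p = 0.145) and S100a9 (-0.99, SE 0.37, adjusted p = 0.275), and edgeR called neither, though both had an unadjusted p under 0.05. DESeq2 gave no adjusted p for them. Their summed level with the other 4 was 3.40 to 8.37 CPM with PBS and 0.792 to 4.02 CPM with ghrelin, ranges that overlap. Camp was at 0 and Ngp, Ltf and Elane had 7 to 12 counts each over the 12 libraries. Mean levels of Ngp (0.039 CPM with PBS, 0.072 with ghrelin) and Elane (0.024 and 0.036) were higher with ghrelin, at counts too low to test. The part of neutrophil RNA in the difference of the transcript was not tested.

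Set against the whole class, the long non-coding genes as annotated numbered 4024, of which 2807 had a count and 526 were tested, and they held 1.02% of all counts. Malat1 ranked 1 among them by CPM, Neat1 4, Snhg3 7, Gas5 15, Meg3 477 and H19 1291. The rank of Snhg3 has the limit given above, that its count follows those of its snoRNA genes. The class was taken by annotated gene type, so it includes some rows with the symbols of protein-coding genes, such as Cct6a and Serpina11. Of the 526, 359 were higher on average with ghrelin and 167 lower, and their median log2 fold change was 0.14 against 0.00 for all tested genes. Apart from 1810019D21Rik, which was chosen on this contrast, edgeR called 0 of them. DESeq2 called 4 of the 183 for which it gave an adjusted p (2.19%, the chosen transcript among them, against 1.83% of all genes), and 87 had an unadjusted p under 0.05 by edgeR (16.5% against 13.4%). Genes of the class are mostly low, at a median of 1.44 CPM against 11.8 CPM for all tested genes. Below a mean of 2 CPM, 71.6% of 320 long non-coding genes were positive with a median of 0.19, against 52.4% of 2346 other genes with a median of 0.01. At 2 CPM or more, 63.1% of 206 were positive with a median of 0.07, against 48.7% of 11298 other genes.

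Well-known long non-coding RNAs outside the 9 had 11 positive and 8 negative log2 fold changes of 19 tested, with a median of 0.06, 0 calls by edgeR (1 unadjusted p under 0.05) and 0 by DESeq2. Tug1 had 50.8 CPM in the PBS group and 45.9 in the ghrelin group (log2 fold change -0.15, SE 0.08), and Dleu2 17.7 and 19.7 CPM (0.15, SE 0.08). Structural short RNAs had positive log2 fold changes in 7 of 7 with a median of 0.18, 0 calls by either tool and 1 unadjusted p under 0.05. Scarna2, a guide RNA of Cajal bodies, had 43.8 ± 6.34 and 56.6 ± 9.22 CPM (0.37, SE 0.11, adjusted p = 0.199), and Rmrp, the RNA of RNase MRP, 1358 ± 123 and 1539 ± 210 CPM (0.18, SE 0.09, adjusted p = 0.399).

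**Figure D5:**
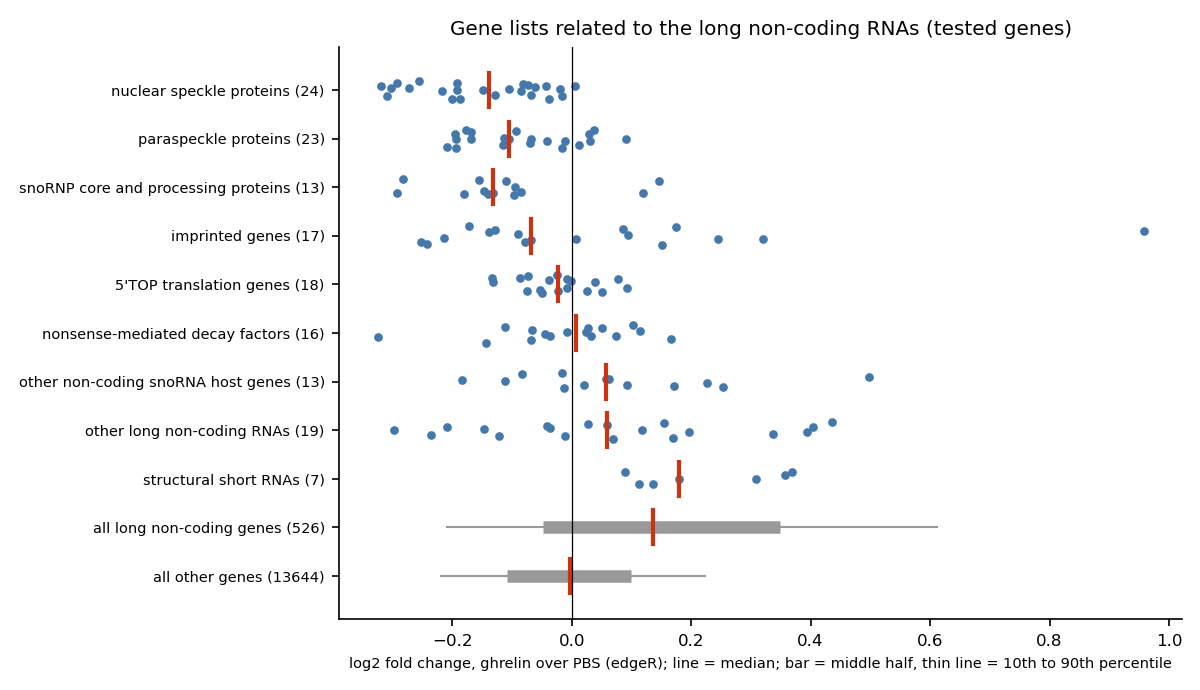
Log2 fold changes of ghrelin over PBS (horizontal axis) are shown for the tested genes of 9 lists as points, with the median as a red line and the number of genes in brackets. The bottom rows give all 526 long non-coding genes and all 13644 other genes as the 25th to 75th percentile (thick bar) and the 10th to 90th percentile (thin line), and the medians run from -0.14 for nuclear speckle proteins to 0.18 for structural short RNAs.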

How the data were processed

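The authors deposited whole-number exon counts per gene that were not normalised, per the file headers and the values. STAR 2.4.0i and mm10 are named in the submitters' processing notes. How reads were counted (tool, annotation, strand, reads shared by genes) is not given in the sources used here. RNA was depleted of ribosomal RNA and libraries were stranded, per the labels' protocols. Groups come from titles and treatment labels.

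Genes were filtered with filterByExpr (minimum count 10, minimum total 15), scaled by TMM and compared by the two-sided quasi-likelihood F test of edgeR 4.0.16 in R 4.3.3, with Benjamini-Hochberg adjustment over the 14170 tested genes. CPM values carry the TMM factors and are means ± SD over 6 libraries; log2 CPM for correlations uses a prior count of 2. Permutation tests used 100000 resamples. GENCODE M21 (GRCm38) gave exon lengths, gene types and positions for 95.3% of genes through the Ensembl identifier. Alternatives were DESeq2 1.42.0, other scalings and filters, a replicate block and leaving out each library. Fits were tested on simulated data. Within a group, any pair of libraries differed by 10.8 to 44.4 times the counting variance, so no library was the copy of another in its group. Pairs across the groups were not compared in this way.

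The members and gene lists were chosen with earlier results of these data known. Named genes are the members, the 5 genes most like each of 4 members, up to 3 tested genes with the smallest p in each list, part of which are given, and genes within 20 kb of a member, 1 of which is not reported here. Snhg12, Zfas1, Tug1, Dleu2, Afp, Sf3b1, Srsf2 and the genes below the filter were named after their values were seen.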

Additional observations from a re-analysis of the deposited data

How the results depend on the processing

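Of 5 members tested other than 1810019D21Rik, none was called in any of the fits tried. Log2 fold changes ranged from 0.04 to 0.08 for Malat1, -0.09 to -0.01 for Gas5, 0.11 to 0.26 for Snhg3 and 0.34 to 0.63 for Meg3. Neat1 ranged from -0.16 to 0.08 and turned positive without PBS 3 (0.084), PBS 4 (0.081), ghrelin 3 (0.054) or ghrelin 6 (0.052). The member 1810019D21Rik, chosen on this contrast, is the only one that any fit called, so the number of members called, 0 to 1 on leaving out a library (0 without PBS 3, ghrelin 1 or ghrelin 3), is no evidence about it.

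The background count of 15 genes was 63 without a count filter, 204 with DESeq2, 9 with robust estimation and 0 to 32 on leaving out a library: it was 0 when ghrelin 1 (1675 at an unadjusted p under 0.05) or ghrelin 3 (1536) was left out, 5 for PBS 3, 6 for ghrelin 6, 9 for ghrelin 2, 23 for PBS 6, 24 for PBS 5 and 32 for ghrelin 4. The cause was not tested. With the replicate number as a block the count was 58 and 1 member was called. The labels do not say that numbers pair libraries: deviations of same-numbered libraries correlated at -0.08 to 0.27, over 0.1 in 3 of 6 pairs, and 1 of 6 PBS libraries correlated best with its own number.

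On leaving out a library, r of Neat1 and Malat1 ranged from 0.30 to 0.56, r of Gas5 and Snhg3 from -0.47 to 0.07 (0.0699 without ghrelin 5), and the log2 ratio of Neat1 to Malat1 differed between groups by -0.22 to 0.01. By longest transcript the level was 23.9 CPM per kb for Gas5, 258 for Snhg3 and 13.9 for 1810019D21Rik. Depth limits H19 and Meg3, with 0 to 3 and 6 to 19 counts per library.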
